A study of Drosophila melanogaster with 20 samples.

Results

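Of the 3463 sites at which the study compared binding of the ecdysone receptor EcR between tissues, 359 (10.4%) lay next to a centromere or on chromosome 4. They were chosen by position alone, in 5 windows on dm6: a site was taken if its midpoint lay at or beyond 22 Mb on 2L, 23 Mb on 3L or 22 Mb on X, below 4.5 Mb on 3R, or anywhere on chromosome 4. The 3R window held 164 sites, the X window 85, the 3L window 76, and the 2L window and chromosome 4 held 17 each. The chromosome arms outside these windows, with 3032 sites and including all of 2R, serve as the comparison.

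EcR is the nuclear receptor for ecdysone, the steroid hormone that times moulting and metamorphosis in the fruit fly. The study profiled it by CUT&RUN, in which an antibody tethers a nuclease that cuts out the DNA around the bound protein, in wing and leg imaginal discs and in the larval salivary gland. All tissue came from wandering larvae, labelled female and staged 6 hours before the puparium forms, that carried EcR-GFSTF, a tag with a Flag epitope, over the deficiency Df(2R)BSC313, so the tagged copy was the EcR copy left in every group compared here. For each of the 3 tissues the released supernatant and the remaining pellet were sequenced with anti-Flag in 2 replicates, 12 libraries in all, each from pooled tissue (at least 50 glands or 90 wings or legs). Another 8 IgG libraries, 6 from wild-type wings and 2 from glands of the tagged genotype, were not analysed here. Whether replicates came from separate dissections is not stated in the labels. The deposited p-values therefore reflect only how far these libraries differ, and that spread may be technical.

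Chromatin next to fly centromeres is heterochromatin: rich in repeats, poor in genes, and packaged with the protein HP1. In polytene nuclei such as those of the salivary gland it is replicated less than the arms, and so are the ribosomal RNA gene arrays on X. Chromosome 4 is small and carries heterochromatin-like marks along most of its length, yet its genes are active. DNA copy number was not measured, so in these data fewer gene copies in the gland and less EcR per copy cannot be told apart. Nor can fewer cells of a type be told apart from less EcR per cell.

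The data are 6 peak lists, 1 per tissue and fraction from merged replicates, and 3 tables of differences between tissues over the same sites. Values per library are not in these tables, so each site has a mean normalised read count over libraries, a log2 fold change with its standard error (SE) and an adjusted p from DESeq2, all as the authors deposited them. A site is called higher in a tissue where that adjusted p was under 0.05. The depth of each library is unknown. Although the larvae are labelled female, 67 sites of the series lay on chromosome Y, all with disc peaks and 0 with a gland peak. Coordinates are printed as deposited.

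Sites near centromeres and on chromosome 4 were mostly higher in the discs than the gland. Between wing and gland, 260 of 359 were higher in the wing against 10 in the gland, per the authors' deposited table, which is 72.4% and 2.79%. Over all sites of the series, 55.1% were called, 28.7% with the wing higher and 26.4% with the gland higher. The median log2 fold change of wing over gland was 1.69, a 3.23-fold difference, against 0.46 over all sites and 0.19 on the arms in the authors' deposited table. Between leg and gland, 274 were higher in the leg (76.3%) and 5 in the gland (1.39%), against 29.6% and 22.7% over all sites, of which 52.3% were called. The median was 1.84, against 0.39 on the arms, in the authors' deposited table. Both comparisons use the same gland libraries, so they are not independent, and 245 sites were higher in both discs while 60 were called in neither comparison. Shifting all fold changes so that the arms had a median of 0 left 228 sites higher in the wing against 11 in the gland, and 194 higher in the leg against 9 in the gland. The same shift moved the series' calls to 795 higher in the wing against 987 in the gland, from 993 against 914, and to 620 higher in the leg against 941 in the gland, from 1024 against 786.

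Wing and leg were not called different at any of these sites. By the authors' DESeq2 test, 0 of the 354 sites with an adjusted p passed, against 1.47% over all sites (0.571% higher in the wing and 0.902% higher in the leg). At an unadjusted p under 0.05 by the same test there were 9 of 359, of which 7 were higher in the leg and 2 in the wing. Over all 3463 sites there were 438, of which 136 were higher in the wing. The median log2 fold change of wing over leg at the 359 sites was -0.19 in the authors' deposited table, equal to that of the arms. The largest difference among the 359, -2.45 (SE 0.74, adjusted p = 0.0531 from DESeq2 in the authors' deposited table), was at X 23456354 to 23456472. That site is 348082 bp from the nearest coding gene and had peaks in the gland supernatant and leg pellet lists.

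**Figure D1:**
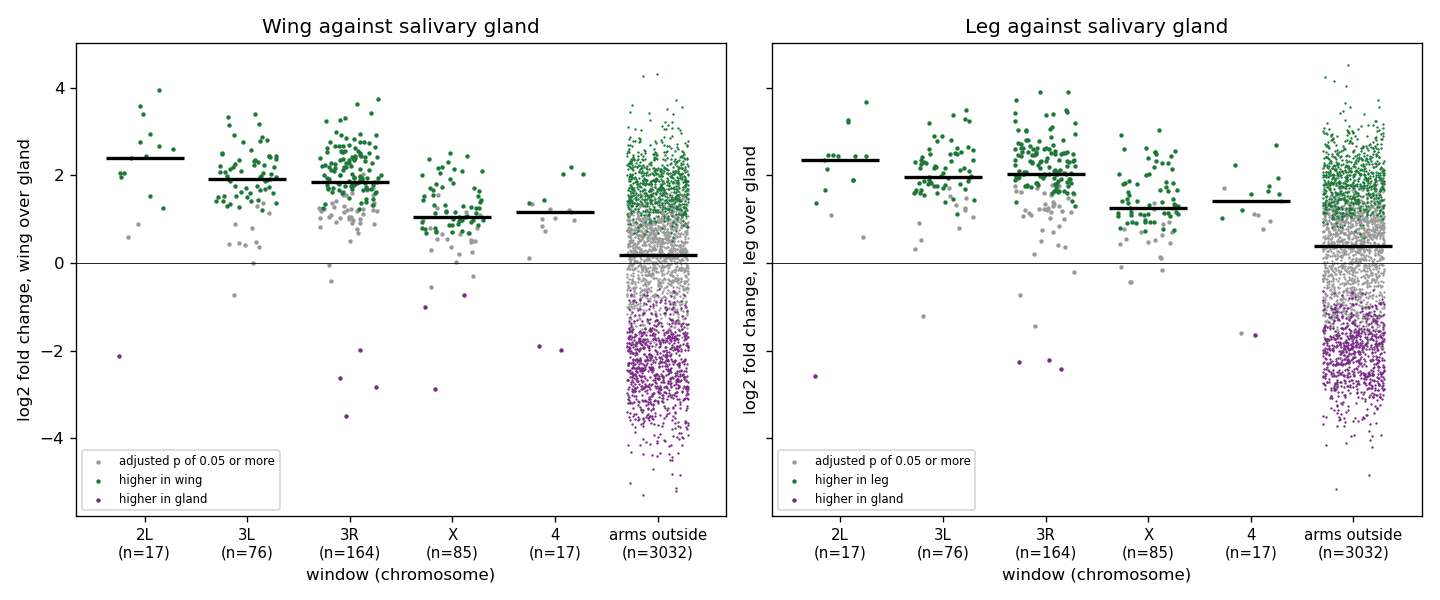
Log2 fold change of each site in wing over gland (left) and leg over gland (right), by window, with the arms outside the windows at the right. Each point is a site, black lines are medians and colours mark an adjusted p under 0.05; medians in the wing comparison run from 1.05 on X to 2.41 on 2L, against 0.19 on the arms.

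The windows differed in how far they leaned to the discs. On 2L, 14 of 17 sites were higher in the wing against 1 in the gland, with a median log2 fold change of wing over gland of 2.41 in the authors' deposited table. The 3L window had 64 of 76 higher in the wing against 0 in the gland, with a median of 1.91 in the authors' deposited table. For 3R the counts were 117 and 4 of 164, with a median of 1.85. The X window had 60 and 3 of 85 and a lower median, 1.05. Chromosome 4 had 5 higher in the wing against 2 in the gland of 17, with a median of 1.15. Against the leg the medians kept close to these, at 2.35 on 2L, 1.96 on 3L, 2.03 on 3R, 1.26 on X and 1.41 on chromosome 4 in the authors' deposited table. With the leg, 9 of the 17 chromosome 4 sites were called higher in the disc, and 1 higher in the gland.

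On 2L, 3L and 3R the sites in the outer 1 Mb had a lower median than those further in, while on X they had a higher one. Beyond the outer 1 Mb, the medians of 3L and 3R did not rise steadily. On 3R, the 7 sites in the outer 1 Mb had a median log2 fold change of wing over gland of -0.42, with 3 higher in the gland. The next steps of 1 Mb had medians of 1.84, 1.93 and 2.03. The 127 sites more than 4 Mb inside had 1.86, with 97 higher in the wing against 0 in the gland, per the authors' deposited table. Of those 127, 125 form a single cluster at the centromere end, so this step describes mainly that cluster. On 2L, the 2 sites in the outer 1 Mb had -2.11 and 0.60, and the 15 sites beyond had a median of 2.44. On 3L the 8 sites in the outer 1 Mb had a median of 1.13 and the 38 in the next 1 Mb had 2.12, followed by 1.61 (3 sites), 2.34 (9 sites) and 1.63 (18 sites) in the 3 further steps of 1 Mb, in the authors' deposited table. On X the order was the other way, with a median of 1.72 at the 9 sites in the outer 1 Mb and 1.001 at the 76 beyond, in the authors' deposited table. In the 2 Mb outside the edges the medians were 0.09 on 2L, -0.01 on 3L and -0.85 on 3R in the authors' deposited table, with 9 of 27, 19 of 50 and 25 of 50 sites higher in the gland. X differed outside its edge as well: 25 of the 50 sites in the 2 Mb outside its edge were already higher in the wing against 6 in the gland, with a median of 1.52. Most of these lay in the 1 Mb next to the edge, where 23 of 42 sites were higher in the wing. Placed on either side of the 3R edge were CG31523 just inside (4472967 to 4473127, -0.42 in wing over gland) and the overlapping CG34357 and Mur82C just outside (4542052 to 4542153, 0.03), neither called in the authors' deposited table. The sites next to the 2L edge were in CG42748 inside (-2.11) and 160 kb outside it (0.89), in the authors' deposited table. On X, the nearest site inside had 0.30 and the nearest outside 1.89, and on 3L the values were 0.48 inside and 1.30 outside, in the authors' deposited table.

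**Figure D2:**
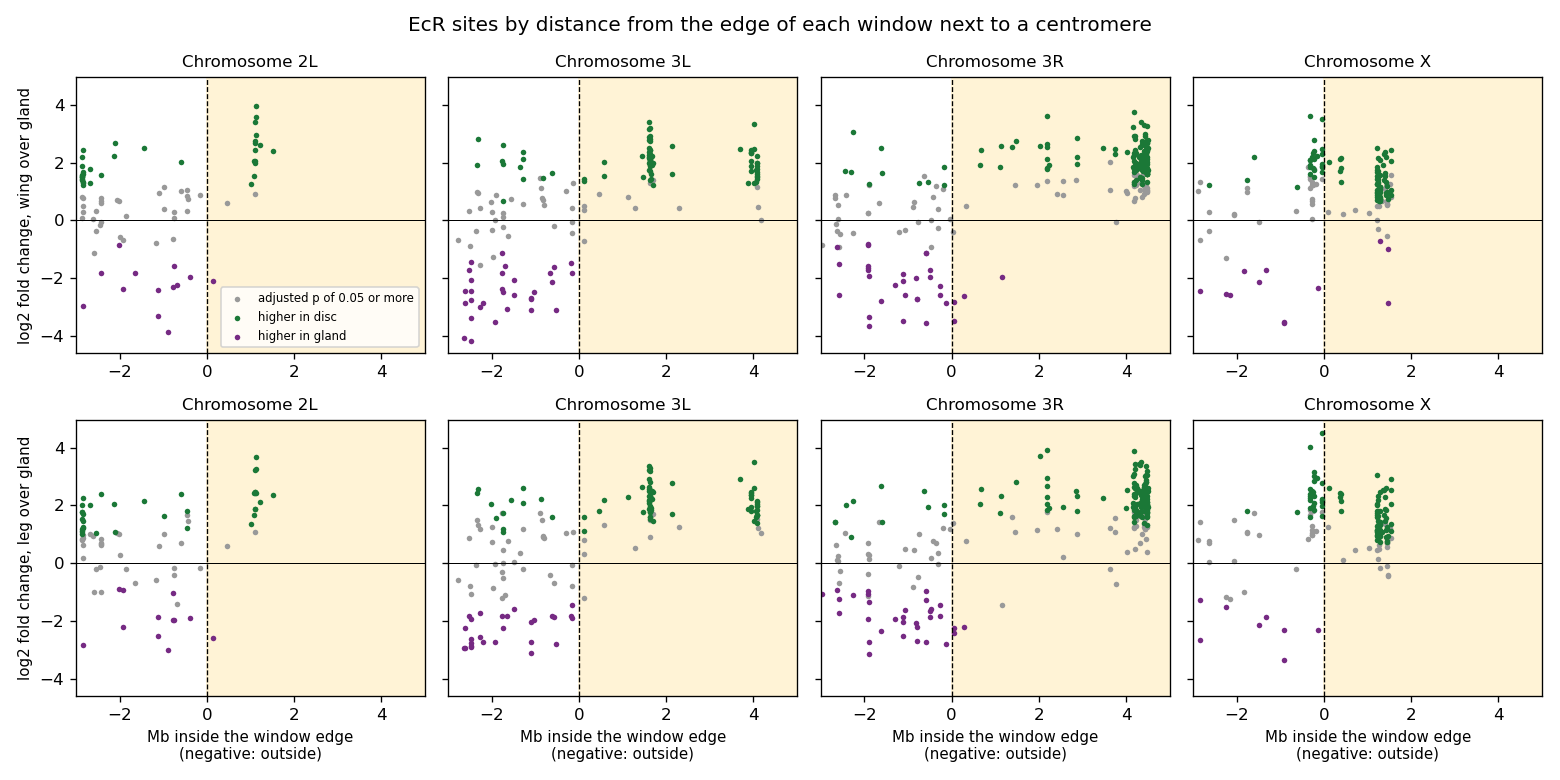
Log2 fold change of wing over gland (top) and leg over gland (bottom) against distance from the window edge in Mb, on 2L, 3L, 3R and X, with the window shaded. Each point is a site, and colours mark the direction of calls. The 127 sites more than 4 Mb inside the 3R edge, 125 of them in a single cluster, include 97 higher in the wing against 0 in the gland.

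Peaks at these sites came mostly from the pellet fraction of the discs. Of the 359 sites, 265 overlapped a leg pellet peak (73.8%, exact 95% interval 68.9 to 78.3) and 230 a wing pellet peak (64.1%, 58.9 to 69.0). On the arms 696 of 3032 sites had a leg pellet peak and 40.7% a wing pellet peak. Supernatant peaks were fewer than on the arms: 103 sites (28.7%) had one in the wing and 79 of 359 in the leg, against 42.3% and 47.9%. Gland peaks were the fewest, with 14 sites in the supernatant list (3.90%) and 28 in the pellet list (7.80%), against 36.7% and 29.1% of arm sites. These intervals cover counting error only and take sites as independent, which neighbouring sites are not. The lists come from merged replicates, and names of single peaks point to wing IgG as the control of all lists, the gland's included.

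By combination, 327 sites (91.1%) had disc peaks only, 25 had gland and disc peaks and 7 (1.95%) had gland peaks only, against 55.5%, 16.5% and 28.0% of arm sites. Pellet peaks alone marked 211 sites (58.8%), against 16.8% of arm sites, and supernatant peaks alone 33 (9.19%), against 35.3%. The commonest combination, at 81 sites, was a pellet peak in both discs and no other peak. Of the 230 sites with a wing pellet peak, 71 (30.9%) also had a wing supernatant peak, against 74.5% of arm sites with a wing pellet peak. For the leg the shares were 23.8% and 76.4%, and for the gland 35.7% and 73.2%. Seen from the lists, 269 of the 1010 leg pellet peaks (26.6%) lay in the windows, and 233 of 1545 wing pellet peaks (15.1%). The shares were lower in the supernatant lists, at 7.35% in the wing and 5.01% in the leg, and in the gland they were 1.19% of supernatant and 2.99% of pellet peaks. The authors' fold enrichment over background, which ranks peaks within a list only, had a median of 4.44 for wing supernatant peaks in the windows and 6.71 on the arms. In the leg pellet list the medians were 3.50 and 4.41, in the gland pellet list 3.36 and 6.59, and in the gland supernatant list, with 14 peaks in the windows, 6.19 and 6.35. The wing pellet list had 3.11 and 4.49, and the leg supernatant list 4.89 and 7.06. High shares of disc peaks only and of pellet peaks alone were not limited to the windows. In the 2 Mb outside the X edge, 86% of sites had disc peaks only and 70% pellet peaks alone. On chromosome Y the shares were 100% and 79.1%. Outside the 2L, 3L and 3R edges, 48.1%, 46% and 34% had disc peaks only. Pellet peaks alone marked 29.6%, 12% and 16% there.

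**Figure D3:**
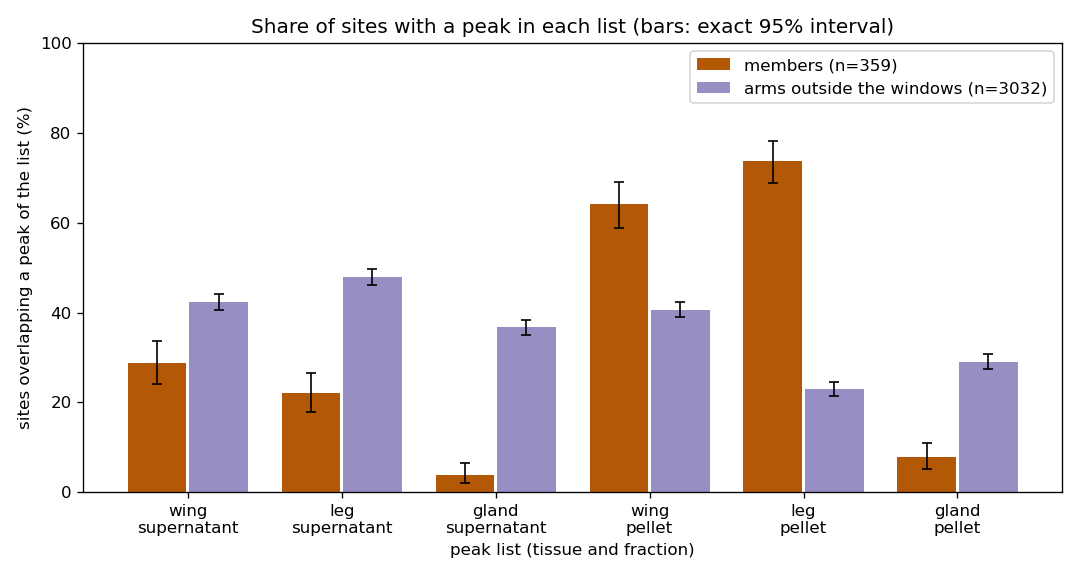
Share of sites that overlap a peak of each of the 6 lists, in percent, for the 359 sites near centromeres and on chromosome 4 and for the 3032 arm sites. Bars start at 0 and error bars are exact 95% intervals; the leg pellet list has 265 of 359 against 696 of 3032 sites, and the gland supernatant list 3.90% against 36.7%.

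The windows again differed. On 3R 160 of 164 sites had disc peaks only, and on 3L 71 of 76. On X, 18 of 85 sites (21.2%) had gland and disc peaks together, against 16.5% of arm sites. The other 4 windows combined held 7 such sites, with lower shares of 6.58% on 3L, 5.88% on 2L and 0.61% on 3R. Pellet peaks alone marked 63 of the X sites. On chromosome 4, 15 of 17 sites had pellet peaks alone, 1 had a wing supernatant peak and 0 had a leg supernatant peak. The 33 sites with supernatant and pellet peaks of both discs and none of the gland were all higher in the wing than the gland, with a median log2 fold change of 2.05, against 168 of 200 arm sites of the same class and a median of 1.73, in the authors' deposited table. For the class with pellet peaks of both discs only, 64 of 81 sites were higher in the wing, with a median of 1.54, against 29 of 47 arm sites and a median of 1.58. Over all sites with disc peaks only, the medians were 1.75 near centromeres and on chromosome 4 and 0.98 on the arms. These classes rest on peaks called in the same libraries, so they describe the sites and do not test them.

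Mean normalised read counts were above those of the arms mostly on X and 3L, while 3R and chromosome 4 were close to the arms. Fold enrichment over background had a lower median in the windows than on the arms in all 6 lists. The mean normalised read count over libraries had a median of 18.0 at the 359 sites and 9.12 on the arms in the authors' deposited table. Of the 152 sites of the series with a mean of 100 or more, 66 were among these 359, which is 18.4% of them against 2.67% of arm sites. X held 43 of the 66, 3L 17, 2L 4 and 3R 2, and chromosome 4 held 0. Window medians were 103 on X, 43.3 on 3L, 13.5 on 2L, 10.6 on 3R and 8.64 on chromosome 4. Sites of low and high mean both leaned to the wing: the 293 sites below 100 had a median log2 fold change of wing over gland of 1.77 and the 66 others 1.10, in the authors' deposited table.

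Most sites stood in clusters far from coding genes. Sites at most 50000 bp apart were chained among these 359 only, so no value for the arms stands beside these counts. In this way 10 clusters with 5 or more sites held 298 of the 359, and 22 sites stood alone. The largest, at the centromere end of 3R from 1003 to 329659, had 125 sites over 329 kb, no gene span, and 237482 bp to the nearest coding gene. Of these, 97 had a leg pellet peak, 60 a wing pellet peak, 58 a wing supernatant peak, 34 a leg supernatant peak and 0 a gland peak of either fraction. By the authors' deposited table, 96 were higher in the wing than the gland and 102 in the leg, 0 were higher in the gland, and the log2 fold changes of wing over gland ran from 0.68 to 3.74. Its top value was at 324281 to 324463, with 3.74 in wing over gland (SE 0.84, adjusted p = 3.78e-05) and 3.89 in leg over gland (SE 0.86, adjusted p = 6.09e-05), DESeq2 values from the authors' deposited table. Only a leg pellet peak marked that site.

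On 3L, 34 sites lay between 24593142 and 24685549, with 32 higher in the wing and a median log2 fold change of 2.17 in the authors' deposited table. Another 14 lay between 27068630 and 27092917, 12 of them higher in the wing, the nearest 116 bp from CG40228. The 3L site with the highest mean, 860, was at 27008010 to 27008244, with 1.29 in wing over gland (SE 0.35) and 1.45 in leg over gland (SE 0.39), both called in the authors' deposited table. On 2L, 11 of 12 sites between 23093251 and 23123892 were higher in the wing. The 2L site at 23123792 to 23123892 had the largest log2 fold change of wing over gland of the 359, 3.96 (SE 0.89, adjusted p = 4.45e-05 from DESeq2 in the authors' deposited table), with peaks in the wing supernatant and both disc pellets. Closer to the 2L centromere, a site at 23512809 to 23512965 had a mean of 570 and peaks in all 4 disc lists, with 2.41 in wing over gland (SE 0.33) and 2.35 in leg over gland (SE 0.36) in the authors' deposited table.

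Genes held few of these sites. A gene span contained 65 (18.1%), against 74.5% of arm sites, and a coding span 42 (11.7%), against 69.9%. Of 277 coding genes in the windows 16 held a site (5.78%), against 8.36% of coding genes on the arms. In the X window 0 of 59 coding genes held one. From a list of genes known in heterochromatin, 5 of the 19 that lie in the windows held a site: Myo81F, AGO3, Snap25, spok and Cht10. The 14 without one included lt, cta, RpL5, vtd, Dbp80, RpL15, nrm, Parp1 and Set1.

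Myo81F, a myosin gene of 1966 kb next to the 3R centromere, held 22 sites, more than any other gene in the windows. By the authors' deposited table, 14 were higher in the wing than the gland and 13 in the leg, and 0 were higher in the gland. None of the 22 had a gland peak, 17 had a wing pellet peak and 9 a leg pellet peak. Of these, 8 stood within 51.9 kb, from 2254339 to 2306241, and 7 of the 8 were higher in each disc than the gland. The strongest, 2304688 to 2304944, had peaks in all 4 disc lists, a log2 fold change of 3.62 in wing over gland (SE 0.70, adjusted p = 1.09e-05) and one of 3.91 in leg over gland (SE 0.72, adjusted p = 6.74e-06), DESeq2 values from the authors' deposited table. In the distal part of the gene, the site at 2468802 to 2468885 had 2.56 and 3.71 and only a leg supernatant peak, in the authors' deposited table. Outside the 8, the site at 728526 to 728619 had -0.05 and -0.73 and was not called in either comparison in the authors' deposited table.

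Pzl, a Piezo-like channel gene next to Myo81F, held 3 sites over a span of 709 kb. The site at 3033495 to 3033725 had 2.76 in wing over gland (SE 0.61) and 2.80 in leg over gland (SE 0.64), called in both in the authors' deposited table. AGO3, an Argonaute of the piRNA pathway, which silences transposons in the germline, held 2 neighbouring sites on 3L. Both were higher in the wing than the gland, with 1.54 (SE 0.74) and 2.03 (SE 0.88) in the authors' deposited table, and the second was also higher in the leg, with 2.18 (SE 0.92). Of these 3 calls, a threshold of 0.01 ended all, and centring on the arms ended the wing call of the first site and the leg call of the second. Snap25, a SNARE of synaptic vesicle fusion, held 2 sites, of which the one at 24124765 to 24124851 was called higher in the leg than the gland (2.30, SE 0.90) in the authors' deposited table, a call that centring and a threshold of 0.01 each ended. Cht10, a chitinase gene on 2L, had peaks in every list but the gland pellet, with 1.24 in wing over gland (SE 0.49) and 1.37 in leg over gland (SE 0.52), both called in the authors' deposited table. Centring, which gave 1.05 and 0.98, ended both calls, as did a threshold of 0.01. Its fold enrichment was 13.8 in the leg, 9.93 in the wing and 4.30 in the gland supernatant list, and the leg value was the highest of the leg supernatant peaks in the windows.

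One of the sites that were higher in the gland lay in spok, which encodes a cytochrome P450 of ecdysone synthesis and is known for its expression in the prothoracic gland. Its site on 3R, 3344836 to 3344947, was the only one of the 359 with a peak in all 6 lists, a combination found at 185 arm sites (6.10%). Its mean normalised read count, 565, ranked 6 among all 3463 sites in the authors' deposited table. Fold enrichment was 55.9 in the gland pellet list, rank 5 of 936, and 29.5 in the gland supernatant list, rank 27 of 1174. In the discs it was 12.2 in the leg pellet list, rank 57 of 1010, and 5.19 in the wing pellet list, rank 548 of 1545. The leg supernatant list had 4.70, rank 1261 of 1596, and the wing supernatant list 2.63, rank 1416 of 1442. The log2 fold change of wing over gland was -1.98 (SE 0.77, adjusted p = 0.0225), 3.94-fold higher in the gland, and that of leg over gland was -1.43 (SE 0.83, adjusted p = 0.104), from DESeq2 in the authors' deposited table. The leg value was thus not called, though centring on the arms added that call, and the wing call ended at a threshold of 0.01. nvd, the other gene of the ecdysone synthesis list in the windows, an oxygenase at the first step from cholesterol, held no site.

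Other sites higher in the gland lay near the window edges or on chromosome 4 and X. CG31522, a gene of the fatty acid elongase family on 3R, had 2 sites about 1 kb apart with gland peaks of both fractions and no disc peak. Their log2 fold changes of wing over gland were -3.48 (SE 0.52) and -2.82 (SE 0.35), and of leg over gland -2.41 (SE 0.52) and -2.26 (SE 0.37), all called in the authors' deposited table. Both lie in the outer 1 Mb of the 3R window. aux, which encodes auxilin, a cofactor of clathrin uncoating, had -2.62 (SE 0.50) and -2.22 (SE 0.52) and gland peaks of both fractions, in the authors' deposited table. CG42748, 146 kb inside the 2L edge, had -2.11 (SE 0.59) and -2.59 (SE 0.65) and a gland supernatant peak, in the authors' deposited table. On X, the site with the largest difference between wing and leg, at 23456354 to 23456472, had -2.88 in wing over gland (SE 0.73, called) and -0.43 in leg over gland (SE 0.74, not called) in the authors' deposited table. Another X site, at 23473364 to 23473467 with gland peaks of both fractions, had -1.004 (SE 0.25, called) and -0.44 (SE 0.27, not called) in the authors' deposited table. All 7 sites with gland peaks only were called higher in the gland than in the wing and 5 of them higher than in the leg. Of the 849 arm sites of that class, 715 and 600 were called the same way. Of the 25 with gland and disc peaks, 11 were higher in the wing against 3 in the gland. Among the 500 arm sites of that class the counts were 109 and 168.

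**Figure D4:**
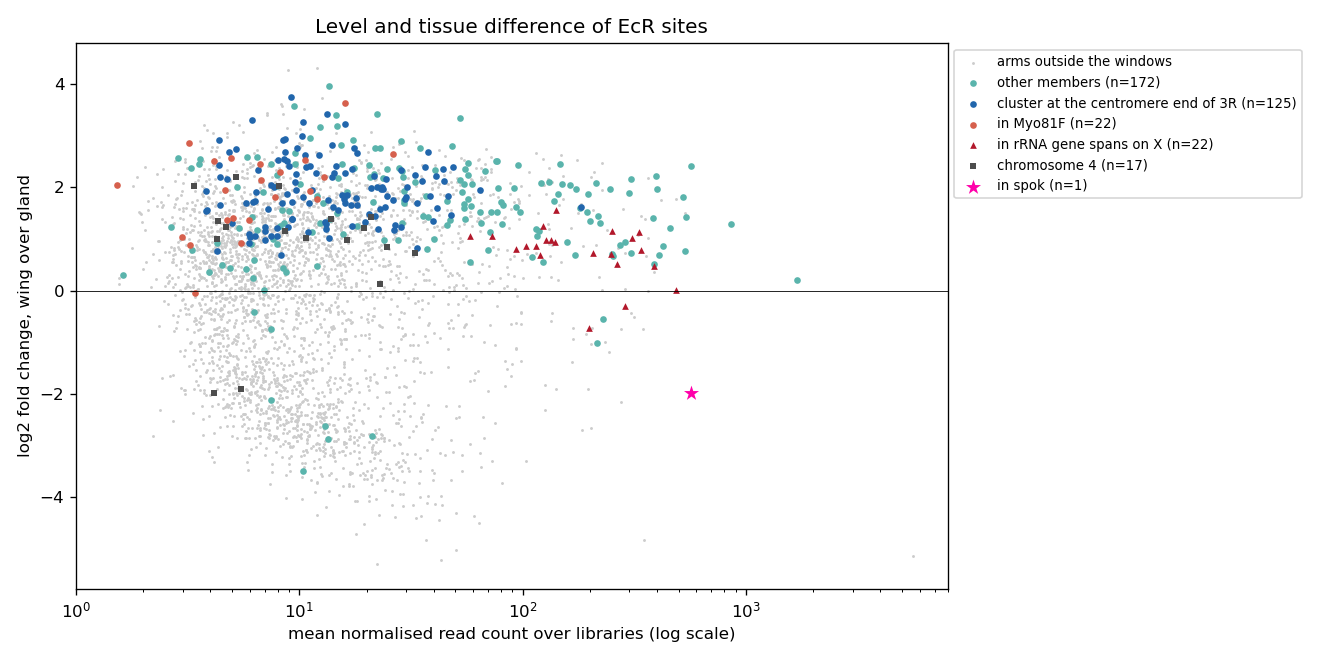
Log2 fold change of wing over gland against the mean normalised read count over libraries (log axis), for arm sites in grey and for the 359 sites by group. Each point is a site; the rRNA spans on X sit between means of 58.4 and 485, and spok, with a mean of 565, lies at -1.98.

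Ribosomal RNA spans on X held 22 of the 85 X sites, 10 of them in the pre-rRNA gene CR45856 and the others only in annotated rRNA pseudogenes. The CR45856 span also overlaps annotated rRNA pseudogenes, CR45861 and CR45862, which hold some of its sites. Means of the 22 sites ran from 58.4 to 485, with a median of 170, in the authors' deposited table. Median log2 fold changes were smaller than those of the 5 whole windows: 17 were higher in the wing against 1 in the gland, with a median of 0.87, and 19 were higher in the leg against 0 in the gland, with a median of 1.10, in the authors' deposited table. Of the 22, 19 had a wing pellet peak, 17 a leg pellet peak and 6 a gland pellet peak, while 1 had a wing, 2 a leg and 3 a gland supernatant peak. The one higher in the gland, at 23282459 to 23282582 in CR45856, had -0.73 in wing over gland (SE 0.24, adjusted p = 0.00612) and -0.17 in leg over gland (SE 0.26, adjusted p = 0.588), from DESeq2 in the authors' deposited table. Copies of such arrays are near-identical, so reads may not be assigned to 1 copy with confidence and neighbouring values may not be separate measurements. How well reads could be placed here was not tested. The 45 X sites outside the stretch that holds the rRNA spans had a median of 1.06 in wing over gland, with 27 higher in the wing against 2 in the gland, per the authors' deposited table. Among them was the site with the highest mean of the 359, 1690, at 22433016 to 22433192, with peaks in every list but the leg supernatant. It had 0.21 in wing over gland (SE 0.38) and 0.12 in leg over gland (SE 0.42) and was not called in the authors' deposited table.

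Chromosome 4 had 80 coding genes, of which 4 held 1 site each. From the lists of its genes, 0 of 18 regulators (ci, pan, ey and toy among them), 1 of 11 signalling genes, 1 of 11 channel, synapse and muscle genes and 1 of 13 housekeeping genes held a site. With shares this low, lists of this length cannot be told apart by such counts. PlexB, a semaphorin receptor, had 1.01 in wing over gland (SE 0.74) and 1.10 in leg over gland (SE 0.77), and unc-13, which primes synaptic vesicles, had 1.35 (SE 0.80) and 1.72 (SE 0.83), none called in the authors' deposited table. apolpp, the precursor of the lipid carrier lipophorin, had -1.98 (SE 0.61) and -1.64 (SE 0.63) and a gland pellet peak, and was called higher in the gland in both comparisons in the authors' deposited table. Mpv17, a mitochondrial inner membrane protein gene whose span overlaps an antisense RNA, had -1.90 (SE 0.72, called) in wing over gland and -1.60 (SE 0.76, not called) in leg over gland in the authors' deposited table. A threshold of 0.01 ended the Mpv17 call in the wing comparison and the apolpp call in the leg comparison. Centring on the arms added a call for Mpv17, higher in the gland, in the leg comparison.

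The other 12 of the 17 chromosome 4 sites stood together between 1274156 and 1307304, from 2538 to 35434 bp beyond Cadps, a gene of regulated vesicle release, with no gene span around them. All 12 had a wing pellet peak, 8 a leg pellet peak, 1 a wing supernatant peak and 0 a gland peak. Log2 fold changes of wing over gland ran from 0.12 to 2.20, with 4 higher in the wing, and those of leg over gland from 0.77 to 2.69, with 8 higher in the leg, in the authors' deposited table. The site at 1305778 to 1305961 had the largest leg value, 2.69 (SE 0.70), and 2.02 in wing over gland (SE 0.69), both called in the authors' deposited table. The last single site, at 593215 to 593309 and 3914 bp from CG1909, was also called higher in both discs, with 1.43 (SE 0.52) and 1.75 (SE 0.55) in the authors' deposited table.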

How the data were processed

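Per the submitters' processing notes, the tools were MACS2 2.1.2, DESeq2 (no version) in R 3.5.2, Picard 2.2.4, SAMtools 1.9, bedtools 2.26 and Bowtie2 2.3.4.1, with dm6; order and settings are not given in the sources used here. List names record merged replicates, trimming, a mapping quality label of q5, removed duplicates and fragments of 20 to 120 bp. At repeats, this filter sets which reads remain. The authors deposited a fold enrichment ratio, a −log10 q-value and a summit offset (another value, in bp, not used) per peak. Each site has, from the authors' DESeq2, a signal (mean normalised read count), a log2 fold change with SE, a Wald score, a p-value and an adjusted p-value. Which libraries entered each fit is not given. With no counts per library, the deposited adjusted p took the place of a planned test on counts (threshold 0.05).

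With Python 3.11.15, pandas 2.3.3 and SciPy 1.17.1, sites were assigned to windows by midpoint, to peaks by an overlap of at least 1 bp (equal to the authors' flags at all 3463 sites) and to genes by midpoint, from RefSeq spans of the same assembly without strand or exons. Of the 849 arm sites with gland peaks only, 715 were called against the wing, all with negative values, which fixes the sign as wing over gland. Centring subtracted the arms' median over the SE from the score, with normal p-values and Benjamini-Hochberg adjustment. It was tested on simulated data in which the score equalled fold change over SE. The deposited score did not equal that exactly. Divided by fold change over SE, it had a median of 0.999 in wing against gland and ran from -31.1 to 106. The simulation did not cover this mismatch, so centred calls are approximate.

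Named sites are, per comparison, up to 8 called per direction with the largest fold change, 1 per gene; per window, the 3 with the highest mean and the strongest supernatant peaks; members of the gene lists; genes with at least 3 sites; and sites next to window edges. Further sites in the text were named after their values were seen. Members and lists were chosen with earlier results of these data known. No genome sequence was used.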

Additional observations from a re-analysis of the deposited data

How the results depend on the processing

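No paired analysis was possible because the tables hold no values per library, and leaving out replicates was not run for the same reason. Counts of sites stayed within 1.5 times under a threshold of 0.01, a minimum log2 fold change of 1 and centring, apart from sites higher in the gland than in the leg, which were 9 after centring, against 5. They were 3 when sites below the median of the table's means were dropped, and 1 with window edges moved inward by 0.5 Mb, which left 6 of 10 higher in the gland than in the wing. Keeping 1 site per 10 kb, an alternative chosen after seeing the data, left 88 higher in the wing, against 260, and 93 higher in the leg, against 274. Sites higher in the gland were then 7 against the wing and 4 against the leg. Thinning lowers the number of sites itself, so these counts do not show a change in share. Among peaks with a −log10 q of at least 10, sites with a peak fell to 41 in the wing supernatant, 33 in the leg supernatant, 9 in the gland supernatant and 152 in the wing pellet list. Coding spans alone held 42 sites, against 65 in any span. Of the named sites, centring ended 4 calls between wing and gland and 16 between leg and gland and added 2 of the latter. A threshold of 0.01 ended 12 and 18. No direction of a called site was reversed. Depth per library is unknown, and sites in repeats are limited by which reads could be placed.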
